A study of Homo sapiens with 6 samples.

Results

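The 6 genes described here act in the making, breakdown and sensing of hyaluronan: the synthases HAS2 and HAS3, the precursor enzyme UGDH, the breakdown proteins HYAL2 and TMEM2, and the receptor CD44. They were chosen by name from the 22152 genes of the deposited table. HAS3 was selected on the same contrast that is reported here, for values that were higher in each miR-21-3p mimic library, so its difference is given as a description with no test. All 6 genes were listed, and all 6 passed the filter on low values, as did 14782 genes of the table.

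The study asked which transcripts of keratinocytes change when miR-21-3p, the 3p strand of the miR-21 hairpin, is raised. It used HaCaT, an established line of human skin keratinocytes that became immortal spontaneously in culture. Cells received 1 nM of a miR-21-3p mimic, a synthetic RNA that takes the place of the mature miRNA, or 1 nM of a negative control mimic (NC mimic), and polyA RNA was sequenced 48 h later. Each group has 3 libraries, which the labels call biological replicates. Nothing says whether they came from separate days or platings, so p-values measure the spread between these libraries only. Recovered reads of the listed genes numbered 24406408 to 27962619 per library. In bulk RNA, fewer cells of a type and less RNA per cell cannot be told apart. Values are normalized counts, that is, the reads of a gene divided by a size factor of its library.

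Hyaluronan is a long, unbranched sugar chain of the extracellular matrix. Synthases in the plasma membrane build it from UDP-glucuronic acid and UDP-N-acetylglucosamine and push the growing chain out of the cell. In the epidermis it fills the space between keratinocytes and is turned over quickly by enzymes at the cell surface and in lysosomes, and cells hold it mainly through CD44.

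HAS3, a synthase often described as making shorter chains, was higher in the miR-21-3p mimic libraries. Its normalized counts were 1060, 1040 and 937 in NC mimic libraries 1 to 3, and 1600, 1450 and 1610 in miR-21-3p mimic libraries 1 to 3. The groups did not overlap, and the lowest miR-21-3p mimic value lay well above the highest NC mimic value. The mean went from 1012 ± 66.0 to 1553 ± 89.6 (SD, n = 3 each), which is a 1.53-fold difference. On the log2 scale the difference was 0.62 with a standard error of 0.06 (95% interval 0.48 to 0.76). Because HAS3 was selected on these values, the estimate can be too high and the interval too narrow, and the interval is not a test against 0. Ranked by signed log2 difference from the highest, HAS3 stood at place 66 among 14782 genes. Of the 8237 genes with a mean of at least 500, 6 had a larger positive difference. Both standings reflect the selection of HAS3 on these values and are a description only.

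**Figure D1:**
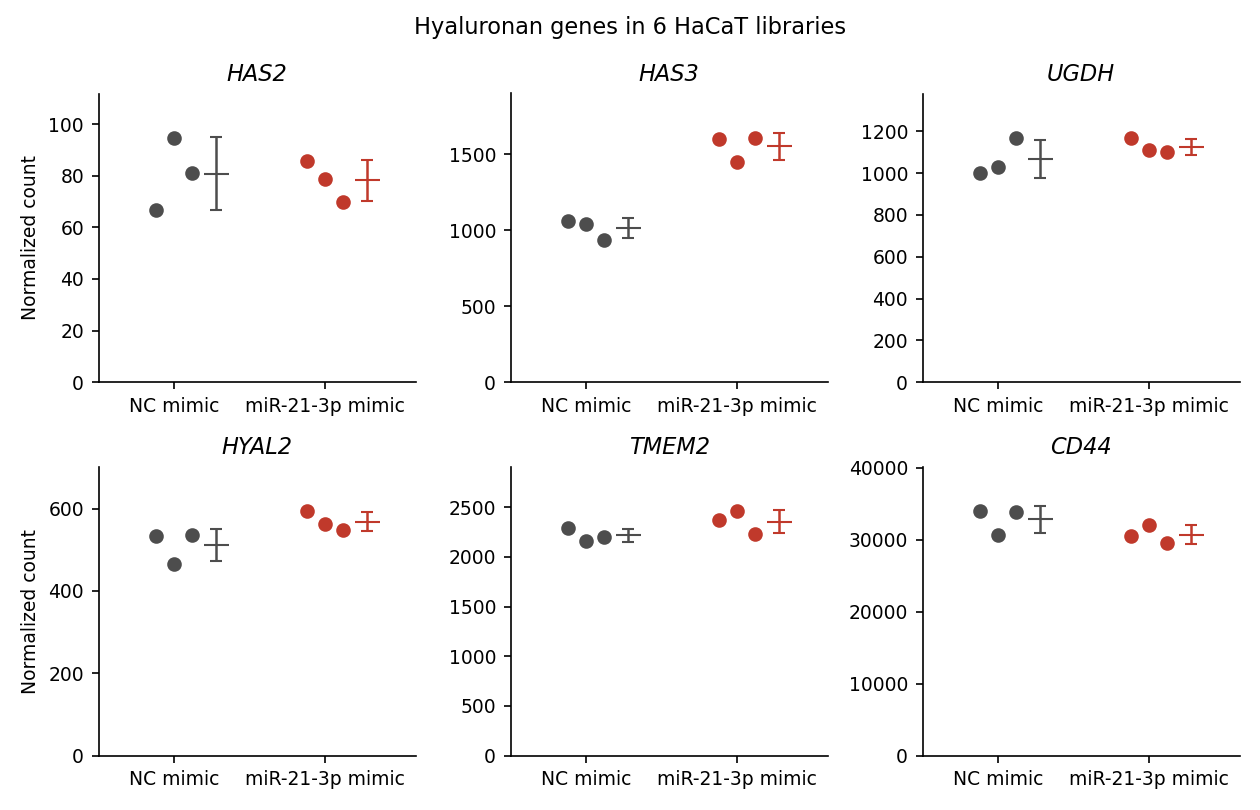
Normalized counts of the 6 genes in each library (points; vertical axes start at 0 and differ between panels), with the mean and SD of the 3 libraries of each group beside them. HAS3 runs from 937 to 1060 in NC mimic libraries and from 1450 to 1610 in miR-21-3p mimic libraries; HYAL2 is also apart by a narrow gap (466 to 536 against 548 to 594), and the other 4 genes overlap.

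The sequence in front of the HAS3 start was searched for motifs of factors known to act on synthase genes. RefSeq places it at chr16:69107290-69107539 of GRCh38.p14, plus strand, and these 250 bases end just before one annotated start of HAS3. GENCODE release 29 gives HAS3 further starts, and 0 of the 250 bases are in a HAS3 exon there. The data do not tell which start was used. Capitals mark the one match to the motifs searched.
HAS3: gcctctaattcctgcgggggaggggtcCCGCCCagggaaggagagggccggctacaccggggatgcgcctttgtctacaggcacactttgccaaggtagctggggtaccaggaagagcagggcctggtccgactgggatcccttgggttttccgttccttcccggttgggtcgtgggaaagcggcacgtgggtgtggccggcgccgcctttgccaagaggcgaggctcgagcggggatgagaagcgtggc
The first of the capitals, as printed, lies 223 bases before the start. The capitals are a match on the minus strand to GGGCGG, the core of the SP1 motif. That motif was present, on either strand, in 42.6% of the 35116 promoter windows of the same length. HAS3 had 0 matches to TTCNNNGAA (STAT factors; 6.57% of windows), TGACG (CREB; 21.2%), CCATNTT (YY1; 11.6%), CCAAT (32.0%) or TATAAA (10.7%). GGGCGG matched at 2 positions in the windows of UGDH and of CD44, at 1 in that of TMEM2 and at 0 in that of HYAL2. A match is a run of letters and not a measured binding site. The guanine and cytosine content of the HAS3 window was 66%, and the median of all windows was 58%.

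HAS2, the synthase known for long chains and for strong induction by growth factors, was low in these cells. In normalized counts it had 66.7, 94.8 and 81.0 in NC mimic libraries 1 to 3 and 85.7, 78.9 and 70.0 in miR-21-3p mimic libraries 1 to 3. The groups overlapped fully, with all miR-21-3p mimic values inside the NC mimic range. For HAS2 the log2 difference was -0.04 (95% interval -0.38 to 0.31; limma adjusted p = 0.90), at 64 to 92 reads per library. The sign was not stable, since the value was 0.08 without NC mimic library 2 and 0.04 without miR-21-3p mimic library 3. HAS1 was not analysed here.

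Reads of HAS3 far outnumbered those of HAS2 in each library. HAS3 made up 94.1% of the reads of both genes in NC mimic library 1 (exact binomial 95% interval 92.5 to 95.4), 91.6% in library 2 (89.9 to 93.2) and 92.0% in library 3 (90.2 to 93.6). In the miR-21-3p mimic libraries the shares were 94.9% (93.7 to 95.9), 94.8% (93.6 to 95.9) and 95.8% (94.8 to 96.7). The shares of the groups did not overlap, but the interval of NC mimic library 1 overlapped all 3 of the miR-21-3p mimic group. These intervals cover counting error only, and HAS3 read numbers rest on values written with 3 significant digits. Since HAS3 was chosen on this contrast, the shares are a description.

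Of the 5 genes other than HAS3, 0 passed limma's test at a Benjamini-Hochberg adjusted p under 0.05, where 10.8% of all 14782 genes tested passed (909 higher and 691 lower in the miR-21-3p mimic group). At an unadjusted p under 0.05 the count was also 0 of 5, beside 28.5% of all genes tested, and DESeq2, limma-voom and edgeR on the recovered reads called 0 of 5. Intervals are given for each gene, since a p that misses the threshold does not show that levels were the same.

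UGDH oxidises UDP-glucose to UDP-glucuronic acid, the building block that hyaluronan shares with other glycosaminoglycans. UGDH had normalized counts of 1000, 1030 and 1170 in the NC mimic libraries and 1170, 1110 and 1100 in the miR-21-3p mimic libraries. The groups overlapped, with the highest NC mimic value level with the highest miR-21-3p mimic value. The log2 difference was 0.08 (95% interval -0.06 to 0.22; limma adjusted p = 0.44). Part of the UGDH exons (7.24% of their bases in GENCODE release 29) lies opposite UGDH-AS1, an antisense transcript whose mean was 224 in the NC mimic group and 225 in the miR-21-3p mimic group.

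Of 11 precursor enzymes listed for the supply of both UDP sugars, 10 were tested, 1 rose and 0 fell, beside 10.8% of all genes tested that were called. The riser was GNPNAT1, the acetyltransferase of the hexosamine pathway. Its normalized counts were 995, 1290 and 1150 in the NC mimic libraries and 1440, 1300 and 1460 in the miR-21-3p mimic libraries. The groups did not overlap, by a gap of 1290 to 1300, and NC mimic library 1 was the lowest of all. With a standard error of 0.08, its log2 difference was 0.30 (limma adjusted p = 0.041). That call was lost without NC mimic library 1 (limma adjusted p = 0.129) or 3 (0.121), or without miR-21-3p mimic library 1 (0.147) or 3 (0.137). UGP2, which makes UDP-glucose, had a log2 difference of 0.04 (95% interval -0.07 to 0.16), and GFPT1, the first enzyme of the hexosamine pathway, one of 0.08 (-0.03 to 0.19). The median log2 difference of the list was 0.08, beside 0.00 for all genes tested.

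HYAL2, a hyaluronidase anchored at the cell surface that cuts long chains, was next to HAS3 in how far its values stood apart. Its normalized counts were 533, 466 and 536 in the NC mimic libraries and 594, 563 and 548 in the miR-21-3p mimic libraries. The miR-21-3p mimic values were all above the NC mimic values, as was so for 16.5% of all genes tested, and the gap between the groups was small beside the NC mimic range. The log2 difference was 0.15 (95% interval -0.01 to 0.32; limma adjusted p = 0.20). HYAL2 shares 11.2% of its exon bases with TUSC2 on the same strand in GENCODE release 29, and how such reads were counted is not given in the sources used here. TUSC2 had means of 385 and 402 in the NC mimic and miR-21-3p mimic groups.

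TMEM2, also named CEMIP2, is a membrane protein described as a hyaluronidase of the cell surface. TMEM2 had normalized counts of 2290, 2160 and 2200 in the NC mimic libraries and 2370, 2460 and 2230 in the miR-21-3p mimic libraries. The groups overlapped through miR-21-3p mimic library 3. For TMEM2 the log2 difference was 0.09 (95% interval -0.02 to 0.20; limma adjusted p = 0.29), the narrowest interval of the 6 genes.

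Of 10 breakdown enzymes, 7 were tested. GUSB, the lysosomal glucuronidase, had normalized counts of 733, 682 and 702 in the NC mimic libraries and 736, 749 and 734 in the miR-21-3p mimic libraries. The groups did not overlap, by a gap of 733 to 734. GUSB was not called (log2 difference 0.07, 95% interval -0.06 to 0.20; limma adjusted p = 0.48).

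The genes of 3 hyaluronidases, HYAL3, HYAL1 and HYAL2, follow each other on chromosome 3 among the tested protein-coding genes in RefSeq order (GRCh38.p14). HYAL1 had 692, 581 and 649 in the NC mimic libraries and 563, 548 and 538 in the miR-21-3p mimic libraries, a log2 difference of -0.22 (95% interval -0.38 to -0.06; limma adjusted p = 0.077). HYAL3 had a log2 difference of -0.10 (-0.33 to 0.12; limma adjusted p = 0.56). HYAL1 and HYAL2 had estimates of opposite sign, neither was called, and the difference between them was not tested. CEMIP, a hyaluronan depolymerising protein related to TMEM2 and listed under its older name KIAA1199, had 0.05 (-0.19 to 0.29).

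CD44, the main hyaluronan receptor, was the most abundant of the 6 genes. CD44 had normalized counts of 34000, 30600 and 33900 in the NC mimic libraries and 30500, 32100 and 29600 in the miR-21-3p mimic libraries. NC mimic library 2 lay within the miR-21-3p mimic range, and the other NC mimic libraries lay above it. For CD44 the log2 difference was -0.09 (95% interval -0.22 to 0.03; limma adjusted p = 0.29). The table gives 1 value for the gene, so forms of CD44 that differ in spliced exons were not analysed here. ESRP1 and ESRP2, splicing factors known to act on CD44, had log2 differences of -0.01 and -0.06 and were not called.

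Of 8 receptors, 5 were tested, 1 rose and 0 fell, beside 10.8% of all genes tested that were called. HMMR, a hyaluronan-binding protein that also acts on the mitotic spindle and is made mostly in dividing cells, had 2780, 3610 and 3110 in the NC mimic libraries and 3670, 3720 and 3990 in the miR-21-3p mimic libraries. The groups did not overlap, although NC mimic library 2 nearly reached the lowest miR-21-3p mimic value. The log2 difference was 0.27 with a standard error of 0.08 (limma adjusted p = 0.044). The call was lost under edgeR with library totals (adjusted p = 0.0545), with no filter beyond 1 read (limma, 0.0508) and after scaling to equal totals (limma, 0.0505), in a range of 0.000636 to 0.150 over all alternatives. In limma it held without NC mimic library 2 and was lost without NC mimic library 1 (adjusted p = 0.144) or 3 (0.142) and without miR-21-3p mimic library 1 (0.110), 2 (0.0664) or 3 (0.150). TLR2, a receptor of innate immunity to which hyaluronan fragments have been tied, had a log2 difference of 0.17 (95% interval -0.04 to 0.38).

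Markers of dividing cells were also higher in the miR-21-3p mimic libraries. The 8 cell cycle markers summed to 59500, 72420 and 65230 in the NC mimic libraries and to 80760, 80050 and 85890 in the miR-21-3p mimic libraries. NC mimic libraries had the same order, 1 lowest and 2 highest, in this sum, in HMMR and in MKI67, the most abundant of the markers (22300, 27600 and 24700). In the miR-21-3p mimic group MKI67 had 31600, 30800 and 34300. Of the 8 markers, 7 rose in the limma test and MCM2 was not called (adjusted p = 0.056), beside 6.15% of all genes tested that rose. For MKI67 the limma adjusted p was 0.010, and without NC mimic library 3 it was 0.0567, so that call was lost. Of the 8 markers, limma called 5 without NC mimic library 1, 8 without NC mimic library 2 and 2 without NC mimic library 3. Without miR-21-3p mimic library 1, 2 or 3 it called 5, 8 and 4. HAS3 did not follow that order among the NC mimic libraries, where library 1 was its highest and library 3 its lowest. Within the miR-21-3p mimic group HAS3 (1600, 1450 and 1610) had library 2 lowest and library 3 highest, as did MKI67 and the marker sum. HMMR had library 1 lowest and library 3 highest there. The part of cell division in the HMMR or HAS3 values was not tested.

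**Figure D2:**
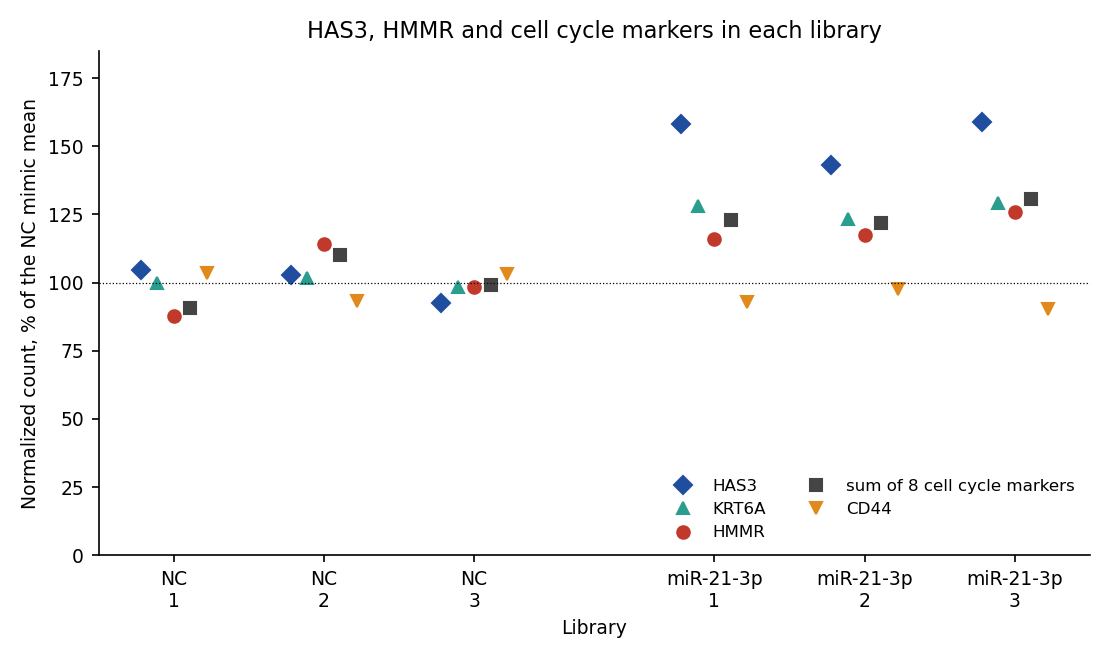
Normalized counts in each library as a percentage of the mean of the 3 NC mimic libraries (dotted line at 100), for HAS3, KRT6A, HMMR, the sum of 8 cell cycle markers and CD44. In miR-21-3p mimic libraries HAS3 stands at 143 to 159%, the marker sum at 122 to 131% and HMMR at 116 to 126%, whereas CD44 stands at 90.2 to 97.8%; HMMR and the marker sum are both lowest in NC mimic library 1.

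The list of CD44 partners holds proteins that tie CD44 to the cytoskeleton, cut it at the cell surface or splice its transcript. All 10 were tested, 1 rose and 1 fell, while 6.15% of all genes tested rose and 4.67% fell. At an unadjusted p under 0.05 limma counted 30% of the list and 28.5% of all genes. MSN (moesin), which joins membrane proteins to actin, had 7270, 8010 and 7360 in the NC mimic libraries and 8640, 8630 and 8590 in the miR-21-3p mimic libraries (log2 difference 0.19, limma adjusted p = 0.023). ANK3, an ankyrin of the membrane skeleton, fell, with means of 894 and 762 in the NC mimic and miR-21-3p mimic groups (log2 difference -0.23, limma adjusted p = 0.031). Both calls were lost in limma without NC mimic library 1 (adjusted p = 0.0796 for MSN and 0.0985 for ANK3), NC mimic library 3 (0.117 and 0.0983), miR-21-3p mimic library 1 (0.103 and 0.122) or miR-21-3p mimic library 3 (0.0735 and 0.115). Both were also lost in limma with the library number as a block (adjusted p = 0.0522 for MSN and 0.0629 for ANK3). EZR (ezrin), related to moesin, was not called (log2 difference 0.15, 95% interval 0.05 to 0.25; limma adjusted p = 0.058). MMP14, a membrane protease that can cut CD44, had a log2 difference of -0.04 (-0.14 to 0.06).

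Of 15 genes listed as regulators of the synthases, 13 were tested, 1 rose and 2 fell, beside 10.8% of all genes tested that were called. EREG (epiregulin), a ligand of the EGF receptor, had 183, 231 and 199 in the NC mimic libraries and 297, 257 and 280 in the miR-21-3p mimic libraries. The groups did not overlap, and the log2 difference was 0.45 with a standard error of 0.11 (limma adjusted p = 0.022), the largest among the 47 tested genes of the 7 hyaluronan lists when HAS3 is set aside. STAT3, a transcription factor activated by cytokines and by the EGF receptor, fell, with 4540, 4230 and 4410 against 3930, 3960 and 3690 (log2 difference -0.19, limma adjusted p = 0.028). OGA, the enzyme that takes the sugar N-acetylglucosamine off proteins and is listed under its older name MGEA5, fell from 9897 ± 61.1 to 8900 ± 246 (SD, n = 3; log2 difference -0.15, limma adjusted p = 0.037). EGFR itself had 31900, 27400 and 30300 against 26400, 27100 and 23800, with a log2 difference of -0.21 (95% interval -0.35 to -0.07; limma adjusted p = 0.056), and SP1 had -0.02 (-0.11 to 0.07). The receptor and its ligand EREG thus had estimates of opposite sign.

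The calls of EREG, STAT3 and OGA rested on most of the libraries. Without NC mimic library 1 the limma adjusted p was 0.0796 for EREG, 0.0874 for STAT3 and 0.0884 for OGA. Without NC mimic library 3 the limma adjusted p was 0.0926, 0.113 and 0.135 in the same order. Without miR-21-3p mimic library 1 the limma adjusted p was 0.108, 0.0901 and 0.172, and without library 3 of that group 0.0785, 0.112 and 0.0935. All 3 calls held without NC mimic library 2 and without miR-21-3p mimic library 2. With the library number as a block, limma called EREG (adjusted p = 0.0305) but not STAT3 (0.0604) or OGA (0.112).

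Over the 7 hyaluronan lists together, 73 genes were named, 48 were tested, and of the 47 other than HAS3, 5 rose and 3 fell. That is 17.0% of these genes, beside 10.8% of all genes tested, and the median log2 difference was 0.04 beside 0.00. The groups did not overlap for 42.6% of the 47 genes and for 31.3% of all genes tested. The matrix binders gave little to compare, as 1 of 16 was listed, HAPLN3, with a log2 difference of -0.05 (95% interval -0.36 to 0.25). Counts depended on single libraries: 0 of the 47 genes were called by limma without NC mimic library 1 or 3 or miR-21-3p mimic library 1 or 3, while 6 rose and 5 fell without NC mimic library 2, and 3 rose and 4 fell without miR-21-3p mimic library 2. Over all genes tested, the share called by limma moved in the same way, with 1.21 to 3.68% in the 4 fits that called 0 of the 47, 20.03% without NC mimic library 2 and 10.4% without miR-21-3p mimic library 2. At an unadjusted p under 0.05, with all libraries, limma counted 14 of the 47 (29.8%), close to the 28.5% of all genes tested. DESeq2 on the recovered reads called 5 higher and 4 lower, beside 9.47% of the 16874 genes it was run on. Of those 16874 genes, 3272 were given no adjusted p and could not be called, so the share among the rest is higher.

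**Figure D3:**
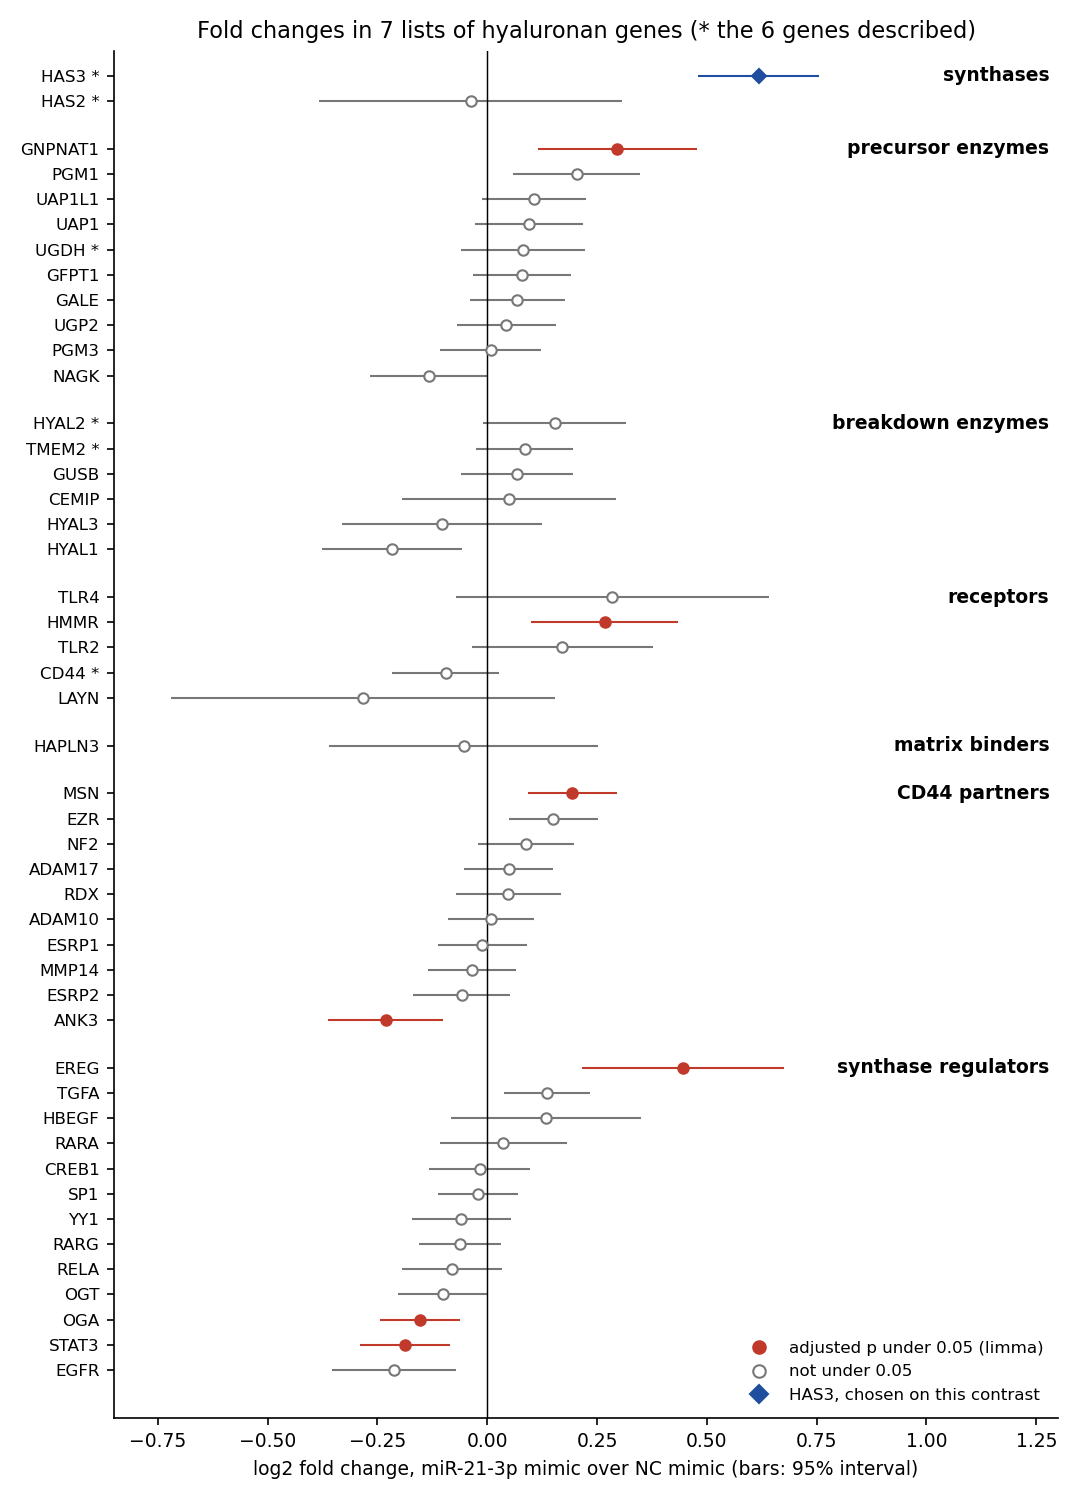
The log2 fold change of miR-21-3p mimic over NC mimic (horizontal axis, limma, with 95% interval) for 47 tested genes of the 7 hyaluronan lists; filled red points have an adjusted p under 0.05, open points do not, and HAS3 (diamond) was chosen on this contrast. HAS3 lies at 0.62 and EREG at 0.45, with intervals that overlap, and the other genes lie between -0.28 and 0.30.

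Enzymes that build other glycosaminoglycans draw on the UDP-glucuronic acid that UGDH makes. Of 16 listed, 14 were tested, 1 rose and 1 fell, which is 14.3% beside 10.8% of all genes tested that were called. At an unadjusted p under 0.05 limma counted 21.4% of the list and 28.5% of all genes. CHSY1, which extends chondroitin chains, had means of 781 and 910 in the NC mimic and miR-21-3p mimic groups (log2 difference 0.22, limma adjusted p = 0.039). EXT1, which extends heparan sulfate chains, fell, with means of 2937 and 2630 (log2 difference -0.16, limma adjusted p = 0.0498). EXT1 lies at the threshold, and its limma adjusted p was 0.0501 with a pseudocount of 0.1, 0.0509 after scaling to equal totals and 0.0553 with no filter beyond 1 read, in a range of 0.0185 to 0.170 over all alternatives. Without one library its limma adjusted p was 0.140 (NC mimic 1), 0.0185 (NC mimic 2), 0.170 (NC mimic 3), 0.133 (miR-21-3p mimic 1), 0.0650 (miR-21-3p mimic 2) and 0.168 (miR-21-3p mimic 3). For CHSY1 the limma adjusted p was 0.0704 without NC mimic library 1, 0.172 without NC mimic library 3, 0.137 without miR-21-3p mimic library 1 and 0.141 without miR-21-3p mimic library 3, and its call held without either library 2. DESeq2 on all recovered reads also did not call CHSY1 (adjusted p = 0.0520). With the library number as a block, limma called neither EXT1 (adjusted p = 0.114) nor CHSY1 (0.0807).

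Levels of different genes were compared as RPKM, reads scaled to exon length and to library total, with exon lengths from GENCODE release 29. In the NC mimic group the order was CD44 (129 ± 7.0), UGDH (10.4 ± 0.835), TMEM2 (9.06 ± 0.258), HAS3 (7.53 ± 0.519), HYAL2 (4.43 ± 0.324) and HAS2 (0.759 ± 0.135), each as mean and SD of 3 libraries. In the miR-21-3p mimic group it was CD44 (121 ± 3.86), HAS3 (11.6 ± 0.767), UGDH (11 ± 0.379), TMEM2 (9.65 ± 0.388), HYAL2 (4.94 ± 0.198) and HAS2 (0.737 ± 0.0713). HAS3 thus stood below UGDH and TMEM2 in the first group, with 6.93 to 7.88 beside 8.88 to 9.36 for TMEM2, and above TMEM2 in the second. In the second group HAS3 (10.7 to 12.1) and UGDH (10.7 to 11.4) overlapped, so their order is not beyond the spread. All other neighbours in either order were apart in all libraries of the group. These lengths count all annotated exons of a gene and may differ from the transcripts present, so levels of nearly equal genes can change places with another annotation.

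**Figure D4:**
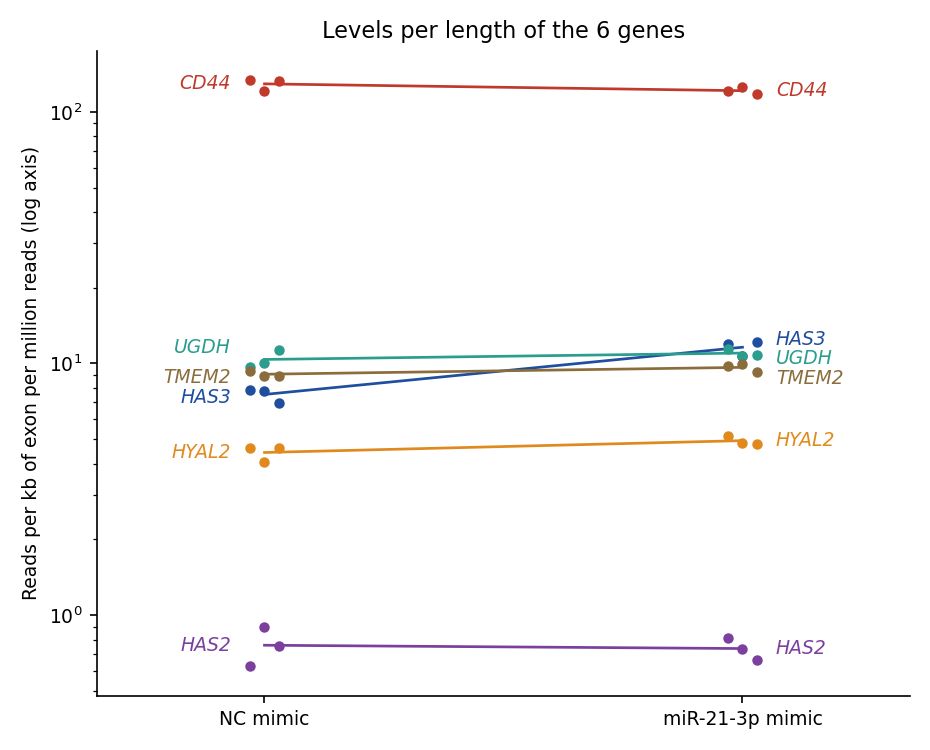
RPKM, reads scaled to exon length and library total (log axis), of the 6 genes in each library of both groups (points), with lines that join the group means. HAS3 lies below UGDH and TMEM2 in the NC mimic group (7.53) and beside UGDH in the miR-21-3p mimic group (11.6), and the other lines are nearly flat.

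Genes beside HAS3 on chromosome 16 were read from the same fit. In RefSeq order, the nearest tested protein-coding genes on one side are CDH3, CDH1 and TANGO6, and on the other CHTF8, UTP4 and SNTB2. Their log2 differences were 0.10, 0.00 and 0.15 on the first side and 0.04, 0.33 and 0.02 on the second. Over all genes tested, 10.8% were called. Among these neighbours UTP4, a ribosome assembly factor listed as CIRH1A, was called (limma adjusted p = 0.038), and the other 5 were not. That call was lost in limma without NC mimic library 1 (adjusted p = 0.105) or 3 (0.144) and without miR-21-3p mimic library 1 (0.139) or 3 (0.151). CHTF8 runs against HAS3 on the opposite strand and covers 6.90% of the HAS3 exon bases in GENCODE release 29. Its normalized counts were 2600, 2850 and 2810 in the NC mimic libraries and 2840, 2880 and 2750 in the miR-21-3p mimic libraries, with overlapping groups. The library kit keeps strand per the labels, while the strand setting of the counting is not given in the sources used here.

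Some genes had a pattern over the 6 libraries much like that of HAS3. Among 10133 genes with a mean CPM of at least 10, the highest Pearson correlations of log2 level with HAS3 were those of ACACA, S100A2, KRT6A, TBC1D16 and ZBED4 (r from 0.991 to 0.995). The lowest were those of PNPLA8, SMARCA1, MAL, TFDP2 and CTSS (r from -0.997 to -0.996). KRT6A, a keratin of activated and wounded epidermis, had 16800, 17100 and 16500 in the NC mimic libraries and 21500, 20700 and 21700 in the miR-21-3p mimic libraries. As for HAS3, miR-21-3p mimic library 2 was the lowest of its group. MAL, a membrane protein of lipid rafts, had 321, 327 and 355 against 214, 230 and 203. The libraries fall into 2 groups, and a difference between the groups adds to the size of r: 6.32% of the genes had an r above 0.9 and 4.67% one below -0.9. These correlations describe 6 libraries and are given with no p.

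Markers of keratinocytes were the most abundant of the cell type markers, and most markers of other cell types were not listed in the table used here. KRT5, a keratin of basal keratinocytes and the most abundant marker, had 139000, 123000 and 130000 in the NC mimic libraries and 135000, 139000 and 125000 in the miR-21-3p mimic libraries. Of 8 keratinocyte markers, 7 were tested, and KRT6A alone rose (limma adjusted p = 0.0020), beside 10.8% of all genes tested that were called. The 7 summed to 275980 to 289280 in the NC mimic group and to 280660 to 303620 in the miR-21-3p mimic group. Of 7 fibroblast markers, COL1A1 alone was listed, with 560, 390 and 478 against 372, 378 and 364. PMEL, 1 of 4 melanocyte markers and the only one listed, had 155, 120 and 128 against 145, 152 and 126, and CD14, 1 of 4 immune markers and the only one listed, had 58.7 to 89.6 against 69.1 to 92.2. Of 4 endothelial markers, VWF (712 to 801 over all libraries) and CDH5 were listed and summed to 1197, 1087 and 1119 against 877, 925 and 883. CDH5, named after its values were seen, fell from 385 ± 95.7 to 155 ± 29.3 (SD, n = 3; limma adjusted p = 0.0026). The part of these markers in the HAS3 difference was not tested.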

How the data were processed

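Per the labels, 6 HaCaT samples were sequenced as polyA RNA with a stranded mRNA kit; the study's methods instead speak of small RNA libraries, and the labels were followed. The submitters' processing notes name bcl2fastq 2.18.12, cutadapt 1.15, TopHat2 2.1.1, featureCounts of Subread 1.5.2 and DESeq2; genome build and annotation are not given in the sources used here. The deposited values are a signal per gene: read counts divided by 1 size factor per library by the authors, written with 3 significant digits. Low values (up to 20 reads) were whole multiples of 1 step in each library, within 0.1 read for 100% of them, so reads were recovered; above 1000 they are approximate. Rows with a mean under about 36 are listed only in part. Genes without a row were not analysed here. Why a given gene has no row was not examined, so a missing row is not read as a low level.

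A count test had been planned. Since normalized values were deposited, limma 3.58.1 (R 4.3.3, trend) was used on log2(value + 1), without covariates, for genes with a mean of at least 10. Log2 differences are on that scale, which understates the change of low genes. Benjamini-Hochberg adjustment ran over all 14782 genes, and genes with an adjusted p under 0.05 were called. Alternatives were edgeR 4.0.16, DESeq2 1.42.0 and limma-voom on recovered reads, other scalings, filters and pseudocounts, a replicate block and leaving out each library; the edgeR fit with TMM on recovered reads and the scaling to equal totals were chosen after seeing the data. The edgeR fit with TMM called 1653 genes. Replicates of a group differed by more than sampling noise (chi-square per gene 1.62 to 2.49). The fits, and not the other steps, were tried on simulated counts with doubled genes. DESeq2 missed a stop set at first on the share of doubled genes called, so the stop was moved to doubled genes with a mean of at least 100, all of which each tool called.

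The 6 genes and the lists were chosen with earlier results of these data known. Named are the 6 genes, the called genes of the 7 hyaluronan lists except 1, which is not reported here but is part of the counts over all lists, and the 2 most abundant not called of each, called genes of the other glycosaminoglycan list, the most abundant cell cycle and cell type markers, and the 5 genes most and 5 least like HAS3. HYAL1, HYAL3, CEMIP, ESRP1, ESRP2, MCM2, CDH5 and the genes beside or overlapping the 6 are outside this rule and were named after their values were seen. Promoter windows are from RefSeq (GRCh38.p14) for 5 of the 6 genes, and exon lengths are from GENCODE 29.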

Additional observations from a re-analysis of the deposited data

How the results depend on the processing

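HAS3 had a log2 difference of 0.61 to 0.62 under the 11 alternatives that kept all libraries and of 0.56 to 0.67 when a library was left out; as it was selected for values that do not overlap, its sign was set by that choice and is no sign of robustness. UGDH, HYAL2, TMEM2 and CD44 kept their sign and were called under none of the 17 alternatives, but their sizes moved when a library was left out: UGDH from 0.037 (without NC mimic 1) to 0.15 (NC mimic 3), HYAL2 from 0.088 (NC mimic 2) to 0.19 (NC mimic 3), TMEM2 from 0.053 (miR-21-3p mimic 2) to 0.12 (miR-21-3p mimic 3) and CD44 from -0.14 (NC mimic 2) to -0.068 (miR-21-3p mimic 3). HAS2 ran from -0.17 to 0.08 when a library was left out, and was positive without NC mimic library 2 (0.083) or miR-21-3p mimic library 3 (0.039).

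Counts over all genes moved most with single libraries: 98 to 1628 genes higher and 81 to 1333 lower, against 909 and 691 with all 6; the cause was not tested. For the hyaluronan lists without HAS3 the ranges were 0 to 6 higher and 0 to 5 lower, against 5 and 3.

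Same-numbered NC mimic and miR-21-3p mimic libraries did not deviate together (r = -0.01, -0.20 and -0.17 across genes). Libraries of unlike number had r from -0.12 to 0.27. With 3 libraries per group, these values cannot tell whether the numbers mark a shared day or plating. With the number as a replicate block, 685 genes were higher and 517 lower, and 3 and 0 of the hyaluronan list genes; MSN, ANK3, STAT3, OGA, EXT1 and CHSY1 were then not called (limma adjusted p = 0.0522, 0.0629, 0.0604, 0.112, 0.114 and 0.0807). Depth limits HAS2 most, at 64 to 92 reads per library.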
